A study of Caenorhabditis elegans with 83 samples.

Results

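The p38 mitogen-activated protein kinase pathway of Caenorhabditis elegans was followed here through 8 genes, tir-1, nsy-1, sek-1, pmk-1, pmk-2, pmk-3, atf-7 and vhp-1, out of 19973 protein-coding genes on the nuclear chromosomes. A peak was assigned to one of these genes when it overlapped the gene or the 2000 bp upstream of it on the WBcel235 assembly. By that rule the 22 deposited peak lists of the series held 652 peaks at the 8 genes, out of 201446 peaks in all, counting a peak again in each list that holds it. Worms that lack set-26 or hcf-1 live long, and the study profiled where SET-26, HCF-1 and the histone deacetylase HDA-1 sit on chromatin and whether each of them still binds when another is missing. Binding was measured by CUT&RUN, in which an antibody tethers a nuclease that releases the DNA beside a bound protein, in 83 samples that the labels place in 41 groups.

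The p38 cascade of the worm passes a signal from the adaptor TIR-1, a TIR-domain enzyme, to the kinase NSY-1, from NSY-1 to the kinase SEK-1, and from SEK-1 to the p38 kinases PMK-1 and PMK-2. The p38 kinase PMK-3 is known from another branch, in which the neuronal kinase DLK-1 signals through MKK-4. PMK-1 acts in intestine and epidermis in defence against bacteria and fungi, and the bZIP transcription factor ATF-7 carries its output to immune effector genes. VHP-1 is a phosphatase that removes phosphate from the kinases of this and the JNK cascade, and so works against them. The genes pmk-3, pmk-2 and pmk-1 lie head to tail in that order on 1 strand of chromosome IV and are transcribed as an operon.

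The mutant alleles were hcf-1(pk924) and set-26(tm2467), each crossed into the same tagged strain that served as its control. HCF-1 carried GFP and 3 copies of FLAG (rwIs33[hcf-1::gfp::3xflag]) and was profiled in set-26(tm2467) worms and their controls. SET-26 carried HA (rwIs27[set-26::ha]) and was profiled in hcf-1(pk924) worms and their controls, and HDA-1 carried GFP and HA (syb5185[hda-1::gfp::ha]) and was profiled in both mutants and their controls. In all of these pairs worms were fed bacteria making double-stranded RNA against glp-1, which removes the germline, or bacteria with the empty vector L4440, which leaves the germline in place. HCF-1 was compared in a further pair of strains that both carried the germline-less allele glp-1(e2141) and grew on OP50 bacteria. Controls for antibody background were untagged glp-1(e2141) and wild type N2 worms on OP50, and with them each factor was also profiled in tagged glp-1(e2141) and tagged wild type worms. All worms were grown at 25 °C and taken as day 1 adults, and whole worms were used, so that binding in fewer cells and weaker binding in each cell cannot be told apart. The absence of the germline and the loss of SET-26 or HCF-1 were not checked here, since peak lists alone were analysed.

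The authors pooled the 2 replicates of a group before calling each list. The values therefore carry no error between replicates, and no test between genotypes could be made. The factor libraries held 27.6 to 71.5 M tags. For HCF-1 the set-26 libraries were deeper than those of the controls, with 35.2 against 27.6 M tags on glp-1 RNAi, 69.0 against 55.9 M in glp-1(e2141) and 37.9 against 31.7 M on L4440. For SET-26 the hcf-1 library was deeper on glp-1 RNAi (59.3 against 38.4 M) and shallower on L4440 (46.9 against 52.5 M). For HDA-1 on glp-1 RNAi the H3 library of set-26 worms was deeper than that of the control (85.6 against 54.5 M), while on L4440 the 2 were close (63.8 against 62.7 M). A fold is the authors' enrichment at a summit, the pileup of the factor library over the local background of the control library. In the 16 lists of the mutant comparisons that control was histone H3 of the same genotype, and in the other 6 it was the antibody background. A control peak is called kept when a mutant peak overlaps it by 1 bp or more, and absent otherwise. The HDA-1 comparisons of the 2 mutants share their control lists, and the SET-26 and HDA-1 lists of glp-1(e2141) worms share an antibody background. For wild type worms the labels give SET-26 and HDA-1 separate HA backgrounds of replicate 1 and a single one of replicate 2. The HCF-1 lists of glp-1(e2141) controls called against H3 and against antibody background come from the same HCF-1 library.

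In germline-less control worms nearly all of the 8 genes had peaks of all 3 factors, with pmk-1 as the weakest of them. On glp-1 RNAi the highest HDA-1 folds were at vhp-1 (10.4), sek-1 (9.20) and tir-1 (8.14), and the highest SET-26 folds at pmk-3 (7.66) and pmk-2 (5.32). HCF-1 was at most at 4.06-fold, upstream of vhp-1. Folds of different factors come from different antibodies and tags, so they are compared between genotypes and not between factors. Because the genes span 2.5 kb (pmk-1) to 32.1 kb (tir-1), against a median of 2.03 kb for protein-coding genes, the counts of bound genes have to be read beside that length. HCF-1 had peaks at 7 of the 8 genes in glp-1 RNAi controls, where 42.8% of all protein-coding genes had 1 by the same rule, at 8 in glp-1(e2141) controls called against H3 (49.0%) or against antibody background (41.7%), at 7 in wild type worms (35.3%) and at 4 in L4440 controls (33.4%). SET-26 had peaks at 8 genes in glp-1 RNAi controls (42.6% of all genes), at 8 in glp-1(e2141) (42.7%), at 8 in wild type (40.5%) and at 7 in L4440 controls (37.8%). HDA-1 had peaks at 7 genes in glp-1 RNAi controls (45.0%), at 8 in glp-1(e2141) (45.6%), at 7 in wild type (34.6%) and at 6 in L4440 controls (34.0%).

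In the mutants the number of these genes with a peak differed between factors. HCF-1 had peaks at only 1 of the 8 genes in set-26 worms on glp-1 RNAi (vhp-1, against 7.1% of all protein-coding genes), at 3 in set-26 worms with glp-1(e2141) (tir-1, atf-7 and vhp-1, 25.0%) and at 2 in set-26 worms on L4440 (tir-1 and atf-7, 23.1%). SET-26 had peaks at 7 genes in hcf-1 worms on glp-1 RNAi (39.2%) and at 6 on L4440 (38.7%). HDA-1 had peaks at 7 genes in set-26 worms on glp-1 RNAi (34.6%) and at 5 on L4440 (16.2%), and at 7 genes in hcf-1 worms on both foods (38.4% on glp-1 RNAi and 31.1% on L4440).

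**Figure D1:**
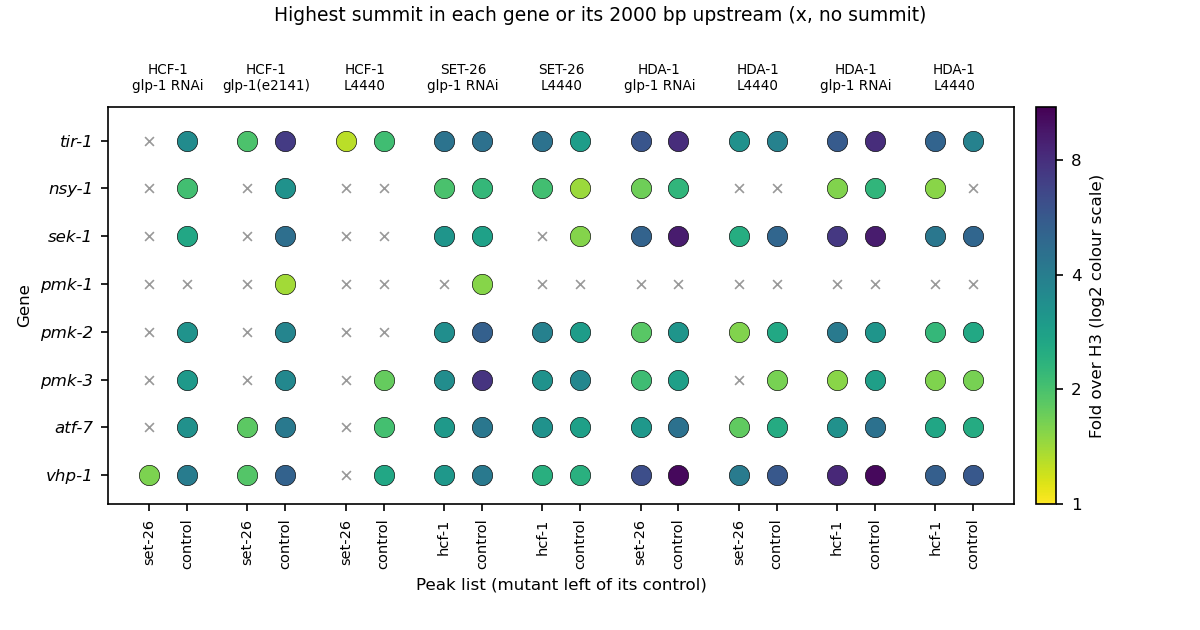
Highest summit fold over H3 inside each gene or its 2000 bp upstream (rows) in the 9 mutant and control pairs (columns, mutant left of control), on a log2 colour scale, with a cross where no summit lies there. HCF-1 columns of set-26 worms are mostly crosses, and the HDA-1 columns are darkest at vhp-1, sek-1 and tir-1, up to 10.4-fold in glp-1 RNAi controls. HCF-1 at atf-7 in set-26 worms on L4440 is a cross because the summit of its peak lies outside the gene.

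The loss was counted over peaks as well as genes. For HCF-1, 2 of 44 control peaks at the 8 genes were kept in set-26 worms on glp-1 RNAi, against 8.87% of all control peaks, 9 of 40 were kept with glp-1(e2141), against 28.3%, and 3 of 17 on L4440, against 44.0%. None of those kept on glp-1 RNAi or with glp-1(e2141) was covered to 50% or more by mutant peaks. New HCF-1 peaks at the 8 genes numbered 0 of 2 on glp-1 RNAi, 0 of 9 with glp-1(e2141) and 0 of 3 on L4440. Of all mutant peaks 16.7%, 20.5% and 2.08% in the same settings had no control peak. With so few mutant peaks at the 8 genes, these counts cannot be set apart from those shares. For SET-26, 26 of 47 control peaks were kept in hcf-1 worms on glp-1 RNAi, against 67.4% of all control peaks, and 21 of 25 on L4440, against 83.0%. New SET-26 peaks numbered 1 of 32 on glp-1 RNAi and 5 of 24 on L4440, against 10.5% and 21.7% of all mutant peaks on the same foods.

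HDA-1 was kept at more control peaks of these genes in hcf-1 than in set-26 worms on both foods. In set-26 worms 27 of 35 control peaks were kept on glp-1 RNAi, against 63.7% of all control peaks, and 13 of 30 on L4440, against 39.3%. In hcf-1 worms 30 of the same 35 were kept, against 70.4%, and 26 of the same 30 on L4440, against 77.8%. New HDA-1 peaks numbered 4 of 36 in set-26 worms on glp-1 RNAi (8.63% of all mutant peaks), 0 of 17 in set-26 worms on L4440 (7.27%), 3 of 35 in hcf-1 worms on glp-1 RNAi (10.2%) and 7 of 31 in hcf-1 worms on L4440 (14.1%). The kept shares of HDA-1 lay above their genome-wide values in each comparison, and those of HCF-1 lay below them in each. The kept shares of SET-26 and the shares of new HDA-1 peaks lay on either side. With a handful of genes that share neighbouring peaks, the counts describe the loci without setting them apart.

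**Figure D2:**
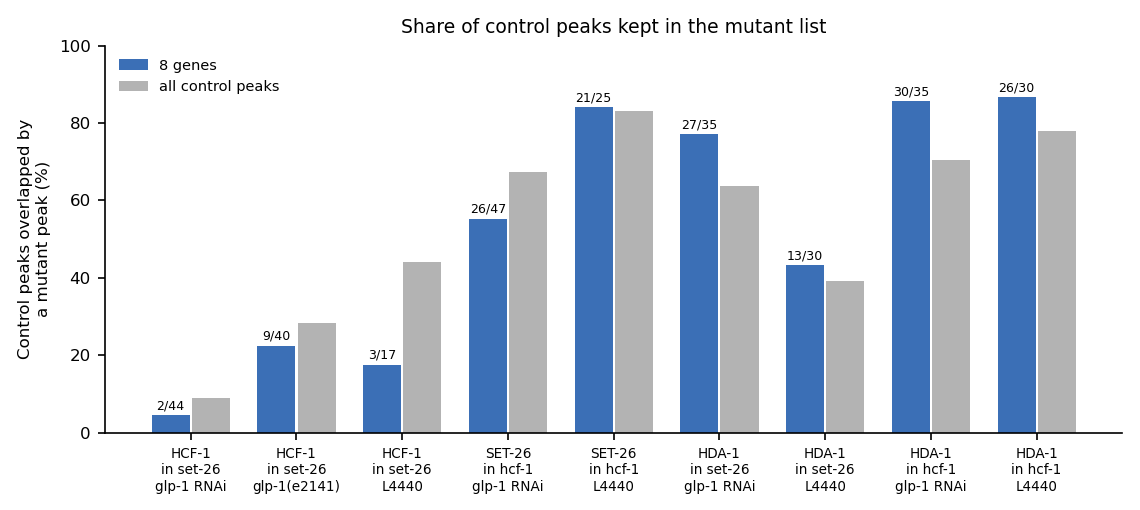
Percentage of control peaks overlapped by a mutant peak in the 9 pairs, for peaks at the 8 genes (blue, left) and for all control peaks of the list (grey, right). Counts over the blue bars give kept over control peaks. HCF-1 in set-26 worms is lowest, with 2 of 44 on glp-1 RNAi, and HDA-1 in hcf-1 worms is highest, with 26 of 30 on L4440.

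Where a peak was kept, its fold was more often lower in the mutant than not, as it was genome-wide. SET-26 in hcf-1 worms on L4440 was the exception, both at the 8 genes and genome-wide. The mutant fold was lower for 27 of 27 kept HDA-1 peaks in set-26 worms on glp-1 RNAi, with a median log2 ratio of -0.43 at the 8 genes and -0.39 over all kept peaks (86.3% of which were lower), and for 13 of 13 on L4440 (median -0.54, against -0.60 over all kept peaks, 92.8% lower). In hcf-1 worms it was lower for 23 of 30 HDA-1 peaks on glp-1 RNAi (75.2% of all kept peaks) and for 14 of 26 on L4440 (64.2%). SET-26 folds were lower in hcf-1 worms for 22 of 26 kept peaks on glp-1 RNAi (85%) and for 8 of 21 on L4440 (41.1%). Their median log2 ratio on glp-1 RNAi was -0.4 at the 8 genes and -0.41 over all kept peaks. On L4440 it was 0.15 at the 8 genes and 0.07 over all kept peaks. Of the few kept HCF-1 peaks, 2 of 2 on glp-1 RNAi (97.9%), 9 of 9 with glp-1(e2141) (96.9%) and 2 of 3 on L4440 (97.0%) were lower in set-26 worms. A fold is relative to H3 of its own genotype, so a change of H3 at a site would move it too, and the part of H3 was not tested.

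Part of the summits recurred at the same sites across lists. A recurrent site was taken as a chain of summits no more than 75 bp apart that was seen in at least 11 of the 22 lists, which gave 32 sites, 14 in vhp-1, 7 in tir-1, 7 in atf-7, 2 in pmk-2, 1 at pmk-3 and 1 upstream of sek-1. With each peak taken at its summit of highest −log10 q, 10 of 34 HDA-1 summits at the 8 genes in glp-1 RNAi controls lay within 500 bp of an annotated transcript start, against 42.3% of all HDA-1 peaks, 13 of 40 HCF-1 summits, against 46.9%, and 13 of 43 SET-26 summits, against 39.1%. For 5 of these sites the 201 bases are shown around the HDA-1 summit of glp-1 RNAi controls, from the RefSeq copy of WBcel235. They are written 5′ to 3′ on the plus strand, which is the coding strand for all of them but tir-1, with matches to 4 motifs in capitals. They were picked among the 32 sites for high folds of HDA-1, SET-26 or HCF-1. The sek-1 site and the upstream vhp-1 site, also high for HDA-1, are not shown. The motif counts of these 5 therefore describe the windows shown and not the sites of these genes as a set.
tir-1 internal site, chrIII:3873612-3873812: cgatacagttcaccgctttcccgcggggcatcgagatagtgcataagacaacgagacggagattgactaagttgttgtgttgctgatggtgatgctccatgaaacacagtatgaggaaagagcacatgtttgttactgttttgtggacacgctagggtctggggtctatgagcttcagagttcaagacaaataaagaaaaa
pmk-3 start, chrIV:8138954-8139154: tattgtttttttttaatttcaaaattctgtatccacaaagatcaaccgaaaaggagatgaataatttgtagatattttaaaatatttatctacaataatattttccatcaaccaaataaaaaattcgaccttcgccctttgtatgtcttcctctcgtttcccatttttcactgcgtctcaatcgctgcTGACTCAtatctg
pmk-2 internal site, chrIV:8146328-8146528: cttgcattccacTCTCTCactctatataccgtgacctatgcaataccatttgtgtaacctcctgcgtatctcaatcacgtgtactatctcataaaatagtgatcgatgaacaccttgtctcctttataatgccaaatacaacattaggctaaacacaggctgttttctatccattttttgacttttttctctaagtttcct
vhp-1 internal site at 7.1 kb, chrII:5330262-5330462: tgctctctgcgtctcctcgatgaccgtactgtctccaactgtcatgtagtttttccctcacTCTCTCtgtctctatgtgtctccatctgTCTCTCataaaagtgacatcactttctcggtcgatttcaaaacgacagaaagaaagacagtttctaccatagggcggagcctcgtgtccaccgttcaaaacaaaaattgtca
vhp-1 internal site at 13.8 kb, chrII:5336946-5337146: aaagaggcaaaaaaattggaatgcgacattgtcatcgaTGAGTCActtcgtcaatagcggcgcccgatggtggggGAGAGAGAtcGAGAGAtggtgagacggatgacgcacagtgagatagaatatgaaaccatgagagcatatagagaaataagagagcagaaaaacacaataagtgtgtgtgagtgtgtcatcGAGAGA

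The motifs searched on both strands were the GA repeat GAGAGA, the site of ATF/CREB bZIP factors, TGACGTCA, the site of AP-1 bZIP factors, TGACTCA, and the GATA factor site of intestinal genes, TGATAA. Neither bZIP motif holds the other, and overlapping matches of GAGAGA were counted one by one. GAGAGA was in 3 of the 5 windows, with 4 matches in the vhp-1 site at 13.8 kb, 2 in the vhp-1 site at 7.1 kb and 1 in pmk-2. The same motif was in 32.5% of the 12041 windows of the same length around the HDA-1 peaks of that list, with 1 window a peak. TGACTCA was in 2 of the 5, at the pmk-3 start and in the vhp-1 site at 13.8 kb, and in 3.18% of all windows. TGACGTCA (1.06% of all windows) and TGATAA (25.4%) were in 0 of the 5. The GC content of the 5 ran from 30.8% at the pmk-3 start to 45.3%, against a median of 38.3% over all windows.

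tir-1, the adaptor at the head of the cascade (WBGene00006575, chrIII:3869590-3901642, minus strand), was bound mainly inside the gene. Its recurrent sites lay from 72 bp to 2537 bp away from the nearest annotated start of a tir-1 transcript. Its strongest site lay 166 bp upstream of the start of the short isoform b, in an intron of the long isoforms and 28.0 kb into the gene. HDA-1 was 5.83-fold enriched there in set-26 worms and 5.60-fold in hcf-1 worms on glp-1 RNAi, against 8.14-fold in the control, whose peak (3873316-3877324) ranked 349 of 12044. On L4440 HDA-1 was at 3.29-fold in set-26 worms and 5.14-fold in hcf-1 worms, against 3.83-fold in the control. It was thus lower in set-26 worms on both foods, and in hcf-1 worms lower on glp-1 RNAi and higher on L4440.

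HCF-1 at this tir-1 site was absent or far lower in set-26 worms. On glp-1 RNAi no HCF-1 peak was called in set-26 worms, against 3.49-fold in the control (3873326-3874425). With glp-1(e2141) a narrow HCF-1 peak was called in set-26 worms at 1.97-fold (3873415-3873800), against 7.28-fold in the control (3872614-3874656), the highest HCF-1 fold at any of the 8 genes. On L4440 it was absent in set-26 worms, against 2.09-fold in the control. SET-26 at the site was at 4.43-fold in hcf-1 worms on glp-1 RNAi, against 4.53-fold in the control, and on L4440 at 4.45-fold, against 2.93-fold. Against antibody background the site had 4.96-fold SET-26, 4.62-fold HDA-1 and 3.06-fold HCF-1 in wild type worms, and 3.28-fold SET-26, 5.37-fold HDA-1 and 3.34-fold HCF-1 in glp-1(e2141) worms.

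A further tir-1 site lay 72 bp upstream of the start of isoform c, 13.8 kb into the gene. HDA-1 had 2.20-fold there in set-26 worms and 2.53-fold in hcf-1 worms on glp-1 RNAi, against 2.87-fold in the control, and 1.55-fold and 2.05-fold in the same mutants on L4440, against 3.12-fold. HCF-1 was absent in set-26 worms on glp-1 RNAi, against 2.63-fold in the control, and with glp-1(e2141) was at 1.27-fold in set-26 worms, against 4.59-fold. SET-26 was kept in hcf-1 worms, at 2.67-fold on glp-1 RNAi and 1.91-fold on L4440, against 3.04-fold and 1.94-fold in the controls on those foods. As at the stronger site, HCF-1 was absent or far lower in set-26 worms while the other factors were kept. In all, HCF-1 kept 0 of 11 tir-1 peaks in set-26 worms on glp-1 RNAi, 3 of 14 with glp-1(e2141) and 2 of 4 on L4440. One of the 2 peaks on L4440 had its summit outside tir-1, in the ribosomal protein gene rpl-3 beyond its 3′ end, and the other was at 1.28-fold. SET-26 kept 7 of 10 tir-1 peaks in hcf-1 worms on glp-1 RNAi and 5 of 6 on L4440, and HDA-1 kept 9 of 13 in set-26 worms and 10 of 13 in hcf-1 worms on glp-1 RNAi, and 5 of 12 and 9 of 12 on L4440.

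**Figure D3:**
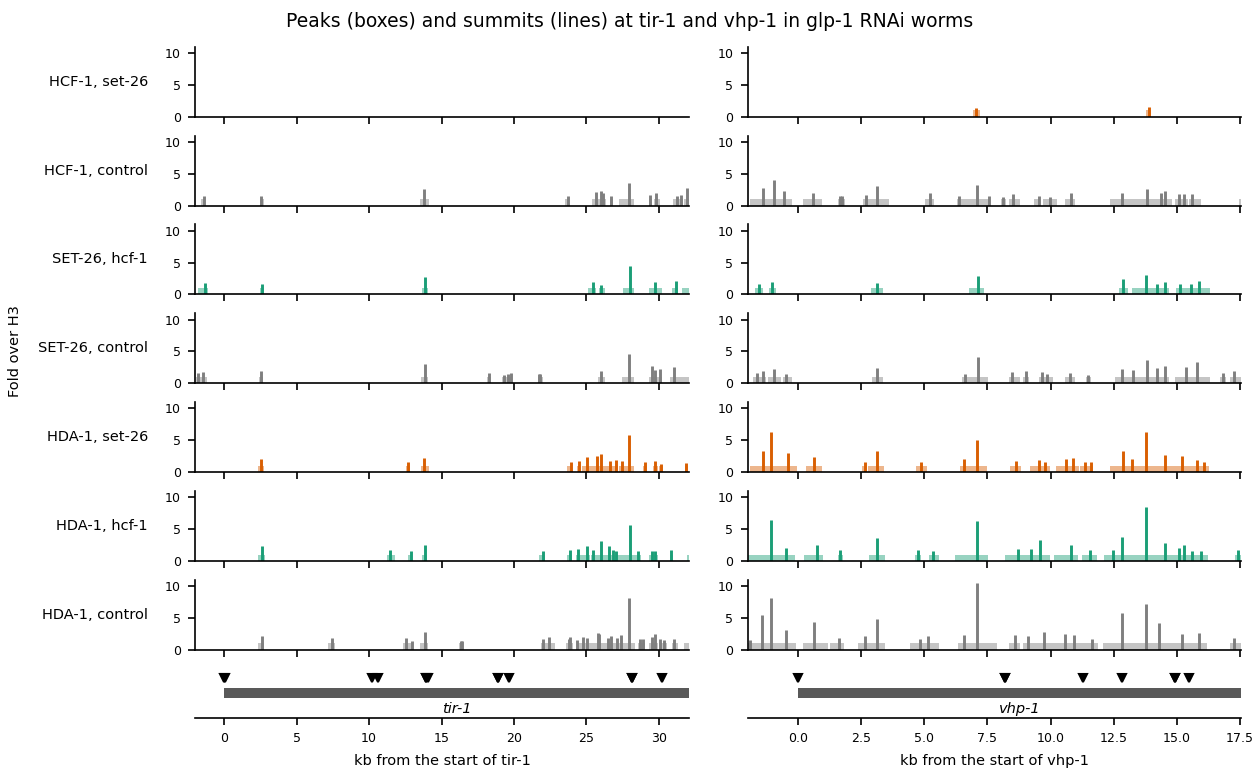
Peaks (shaded boxes) and summit folds over H3 (lines) along tir-1 (left) and vhp-1 (right) in glp-1 RNAi worms, with distance in kb from the gene start on the x axis, mutants above their control and triangles at annotated transcript starts. The tallest tir-1 line is the HDA-1 summit at 28.0 kb (8.14-fold in the control), and the HCF-1 track of set-26 worms holds 2 low summits, both in vhp-1.

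nsy-1, the kinase below TIR-1 (WBGene00003822, chrII:5022757-5029999, plus strand), had only low peaks, and none of its sites recurred in 11 lists. HCF-1 and HDA-1 peaks lay mostly upstream of the gene. On glp-1 RNAi HCF-1 had no peak at nsy-1 in set-26 worms, against 4 in the control, of which the highest was at 2.07-fold (5021391-5021722). With glp-1(e2141) it again had none in set-26 worms, against 4 in the control, led by 3.26-fold at 5020209-5021958. HDA-1 peaks at nsy-1 in set-26 worms on glp-1 RNAi numbered 3, with a highest fold of 1.70, and in hcf-1 worms 2, with a highest fold of 1.58, against 3 in the control, with a highest fold of 2.30 (5021189-5021757). On L4440 HDA-1 had no nsy-1 peak in set-26 worms and 2 peaks of 1.36-fold and 1.54-fold in hcf-1 worms, against none in the control.

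SET-26 by contrast covered the body of nsy-1. On glp-1 RNAi it had 4 nsy-1 peaks in hcf-1 worms, against 9 in the control, 4 of which were kept. The highest summit of that control peak set (2.50-fold, 5028826-5030738) lay beyond the 3′ end of nsy-1, over wdr-83, which overlaps it on the other strand, and was at 2.16-fold in hcf-1 worms (5028809-5030627). On L4440 SET-26 had 4 nsy-1 peaks in hcf-1 worms, of 1.46-fold to 2.06-fold, against 1 in the control at 1.44-fold. The direction of the peak count thus differed between glp-1 RNAi and L4440 worms, as it did over the whole SET-26 lists. Those lists held 11314 peaks in hcf-1 worms on glp-1 RNAi, against 12555 in the control, and 10576 on L4440, against 10119. The switch is therefore not particular to nsy-1.

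sek-1, the kinase above PMK-1 (WBGene00004758, chrX:7816734-7821036, plus strand), owed nearly all of its binding to 1 upstream site. The site lay 1830 bp upstream of the sek-1 start, near the limit of the 2000 bp that define the rule, and in an intron of R03G5.6, which is transcribed from the other strand and overlaps the sek-1 start. So the peak cannot be given to sek-1 rather than to R03G5.6 from its position. It was called in 17 of the 22 lists, and its summits ran from 7814886 to 7814937.

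HDA-1 bound this sek-1 site in every list and was lower in both mutants. On glp-1 RNAi HDA-1 was at 5.15-fold in set-26 worms (7814600-7815367) and 7.48-fold in hcf-1 worms (7814675-7815501), against 9.20-fold in the control (7814530-7815506), whose peak ranked 280 of 12044. On L4440 it was at 2.48-fold in set-26 worms (7814741-7815036) and 4.25-fold in hcf-1 worms (7814658-7815148), against 5.05-fold in the control (7814655-7815110). The order set-26, hcf-1, control held on both foods. Against antibody background it was at 6.09-fold in glp-1(e2141) and 6.32-fold in wild type worms.

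HCF-1 at the sek-1 site was absent from set-26 worms in each setting. On glp-1 RNAi the control had 2.62-fold (7814677-7815122), and with glp-1(e2141) the control had 4.61-fold (7814532-7815365), and neither had a peak in set-26 worms. On L4440 neither the set-26 worms nor their control had an HCF-1 peak there. SET-26 was at 3.14-fold in hcf-1 worms on glp-1 RNAi (7814729-7815046), against 2.81-fold in the control (7814723-7815071), while on L4440 it was absent in hcf-1 worms, against a weak 1.56-fold in the control (7814731-7814994). In the antibody background lists the site held 2.62-fold SET-26 and 2.22-fold HCF-1 in glp-1(e2141), and 2.64-fold SET-26 and 1.41-fold HCF-1 in wild type worms, the HCF-1 peak of wild type being near the weakest of its list (rank 8452 of 8732). Inside the gene HDA-1 had 1 more control peak on glp-1 RNAi, at 1.99-fold (7818606-7819004), which was kept in set-26 worms at 1.53-fold and absent in hcf-1 worms. A peak of 1.45-fold in set-26 worms (7817558-7817766) had no counterpart in the control.

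**Figure D4:**
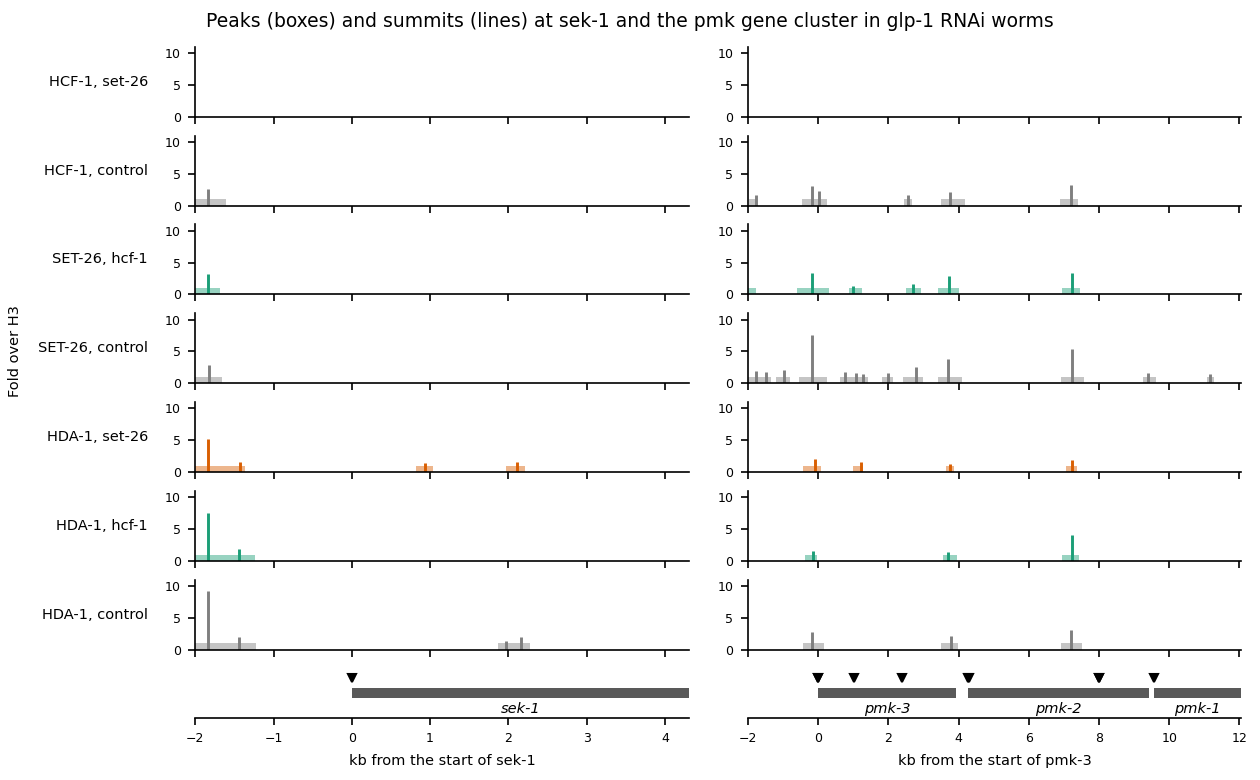
Peaks (shaded boxes) and summit folds over H3 (lines) at sek-1 (left) and across pmk-3, pmk-2 and pmk-1 (right) in glp-1 RNAi worms, with distance in kb from the start of sek-1 or pmk-3 on the x axis, mutants above their control and triangles at annotated transcript starts. sek-1 shows 1 tall HDA-1 summit 1.8 kb upstream, pmk-1 has no HDA-1 or HCF-1 summit, and the tracks of HCF-1 in set-26 worms are empty at both loci.

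The p38 kinase genes pmk-3 (WBGene00004057, chrIV:8139219-8143154), pmk-2 (WBGene00004056, chrIV:8143500-8148648) and pmk-1 (WBGene00004055, chrIV:8148794-8151266) were bound at the first start of the cluster and inside pmk-2, and hardly at all at pmk-1. Since the upstream windows of pmk-2 and pmk-1 lie in the gene before them, a peak there can belong to either. At pmk-3 the site lay 148 bp upstream of the start, over the 3′ UTR of islo-1. SET-26 was at 3.44-fold there in hcf-1 worms on glp-1 RNAi (8138625-8139531), against 7.66-fold in the control (8138669-8139488), and on L4440 at 3.28-fold, against 3.64-fold. On glp-1 RNAi this was the lowest ratio of mutant to control SET-26 fold among the recurrent sites with a summit in both lists.

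HDA-1 at the pmk-3 start was at 2.11-fold in set-26 worms and 1.53-fold in hcf-1 worms on glp-1 RNAi, against 2.86-fold in the control, and on L4440 was absent in set-26 worms and at 1.59-fold in hcf-1 worms, against 1.64-fold. HCF-1 was absent in set-26 worms in all 3 settings, against 3.04-fold on glp-1 RNAi, 3.60-fold with glp-1(e2141) and 1.76-fold on L4440 in the controls. The far larger SET-26 peak upstream, at 20.2-fold in the glp-1 RNAi control (8128853-8137874), reached only the edge of the pmk-3 window. Its summit was at 8136310, between isp-1, a mitochondrial complex III subunit, and islo-1, and it is not counted among the sites of pmk-3.

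The pmk-2 site lay in an intron 2.9 kb into the gene, 781 bp upstream of the start of the short isoform c. SET-26 was at 3.38-fold there in hcf-1 worms on glp-1 RNAi, against 5.32-fold in the control (8146151-8146801), and on L4440 at 3.89-fold, against 2.96-fold. The direction thus differed between glp-1 RNAi and L4440 worms, which differ in the germline as well as in the bacteria. Over all kept SET-26 peaks the median log2 ratio also changed sign, from -0.41 on glp-1 RNAi to 0.07 on L4440. HDA-1 was at 1.86-fold in set-26 worms and 4.12-fold in hcf-1 worms on glp-1 RNAi, against 3.14-fold in the control, and on L4440 at 1.57-fold and 2.23-fold in the same mutants, against 2.60-fold. HCF-1 was absent in set-26 worms on glp-1 RNAi and with glp-1(e2141), against 3.20-fold and 3.70-fold in the controls, and on L4440 neither genotype had a peak.

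A weaker site sat 544 bp upstream of pmk-2, over the 3′ UTR of pmk-3, and was lower in the mutants for both SET-26 and HDA-1 on glp-1 RNAi. SET-26 was at 2.85-fold there in hcf-1 worms on glp-1 RNAi, against 3.87-fold, and HDA-1 at 1.35-fold in set-26 and 1.46-fold in hcf-1 worms, against 2.13-fold. pmk-1, the p38 kinase best known for immunity, had a summit in its window in 2 of the 7 control lists that have a mutant counterpart, in 0 of the 9 mutant lists, and in 4 of the 6 antibody background lists, which have none. Those summits were at 1.39-fold and 1.52-fold for HCF-1 in glp-1(e2141) (called against H3 and against antibody background), at 1.85-fold for HDA-1 in glp-1(e2141), and at 1.44-fold to 1.68-fold for SET-26 in wild type, glp-1 RNAi and glp-1(e2141) worms. The SET-26 peak of pmk-2 in glp-1 RNAi controls also reached the edge of the pmk-1 window, and is counted there as well. With folds this low the absence of pmk-1 peaks in the mutants is near the limit of what the peak calls can show.

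atf-7, the transcription factor at the end of the cascade (WBGene00000223, chrIII:4491627-4499045, minus strand), was bound in its introns by all 3 factors. A site 304 bp upstream of the start of the short isoform c and another 1813 bp upstream of it recurred most. At the nearer one HDA-1 was at 3.06-fold in set-26 worms and 3.29-fold in hcf-1 worms on glp-1 RNAi, against 4.07-fold in the control (4494092-4495667), and on L4440 at 1.57-fold and 2.28-fold, against 2.55-fold. At the farther one HDA-1 was at 2.73-fold and 2.86-fold on glp-1 RNAi, against 4.51-fold (4495810-4496747), and on L4440 at 1.79-fold and 2.66-fold, against 2.42-fold. HDA-1 was lower in set-26 worms at both atf-7 sites on both foods.

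HCF-1 at the nearer atf-7 site was absent in set-26 worms on glp-1 RNAi, against 2.62-fold in the control, and with glp-1(e2141) was at 1.83-fold (4494568-4494849), against 4.17-fold (4493104-4496960). The farther site had no HCF-1 peak of its own in set-26 worms in any setting, against 2.57-fold, 3.88-fold and 1.44-fold in glp-1 RNAi, glp-1(e2141) and L4440 controls. HCF-1 kept 0 of 7 atf-7 peaks on glp-1 RNAi, 1 of 7 with glp-1(e2141) and 1 of 7 on L4440, and the one on L4440 had its summit past the 3′ end of atf-7, in cpg-1, a chondroitin proteoglycan gene. SET-26 had wide peaks over the locus, and kept 2 of 3 in hcf-1 worms on glp-1 RNAi and 5 of 5 on L4440. At the farther site it was at 2.19-fold in hcf-1 worms, against 2.33-fold, on glp-1 RNAi and at 2.03-fold, against 1.81-fold, on L4440.

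vhp-1, the phosphatase that restrains the cascade (WBGene00006923, chrII:5323276-5340829, plus strand), held the highest HDA-1 folds of the 8 genes and the last HCF-1 peaks of glp-1 RNAi set-26 worms. The gene has 8 annotated transcripts from 6 starts, and its recurrent sites spread from 1.4 kb upstream to 15.9 kb into the gene. The site of highest HDA-1 fold in glp-1 RNAi controls lay 7.1 kb into the gene, in an intron and over an exon of the antisense RNA anr-54, 1111 bp upstream of the start of isoform a. HDA-1 was at 5.12-fold there in set-26 worms and 6.33-fold in hcf-1 worms on glp-1 RNAi, against 10.4-fold in the control (5329615-5331142), whose peak ranked 182 of 12044. On L4440 HDA-1 was at 3.43-fold in set-26 and 5.36-fold in hcf-1 worms, against 4.99-fold.

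The vhp-1 site at 13.8 kb, in an intron 991 bp past the start of isoform b, was the higher of these sites for HDA-1 in both mutants on glp-1 RNAi and in L4440 controls. HDA-1 was at 6.26-fold in set-26 worms and 8.45-fold in hcf-1 worms on glp-1 RNAi, against 7.21-fold in the control, and on L4440 at 4.10-fold and 4.63-fold, against 5.72-fold. Upstream of the gene, 1034 bp before its start and between genes, HDA-1 was at 6.24-fold in set-26 and 6.48-fold in hcf-1 worms on glp-1 RNAi, against 8.20-fold, and on L4440 at 2.11-fold and 4.44-fold, against 4.97-fold. The set-26 value was below the control at all 3 vhp-1 sites on both foods. In hcf-1 worms all 10 control peaks of HDA-1 on glp-1 RNAi and all 11 on L4440 were kept, against 8 of 10 and 4 of 11 in set-26 worms.

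The 2 HCF-1 peaks kept in set-26 worms on glp-1 RNAi were at the vhp-1 sites of 7.1 kb (5330221-5330475, 1.42-fold, against 3.31-fold in the control) and 13.8 kb (5337049-5337261, 1.60-fold, against 2.58-fold). Both ranked low in that list, at 1224 and 923 of 1267. With glp-1(e2141) the same sites were at 1.81-fold and 1.90-fold in set-26 worms, against 4.68-fold and 5.23-fold, and on L4440 HCF-1 had no vhp-1 peak in set-26 worms, against 5 in the control. HCF-1 of the upstream vhp-1 site was absent in set-26 worms in all 3 settings, against 4.06-fold, 5.17-fold and 2.14-fold in glp-1 RNAi, glp-1(e2141) and L4440 controls. SET-26 at the 7.1 kb site was at 2.85-fold in hcf-1 worms on glp-1 RNAi, against 4.19-fold, and on L4440 at 2.30-fold, against 2.17-fold. SET-26 at the 13.8 kb site was at 3.06-fold, against 3.66-fold, on glp-1 RNAi and at 2.42-fold, against 2.40-fold, on L4440.

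**Figure D5:**
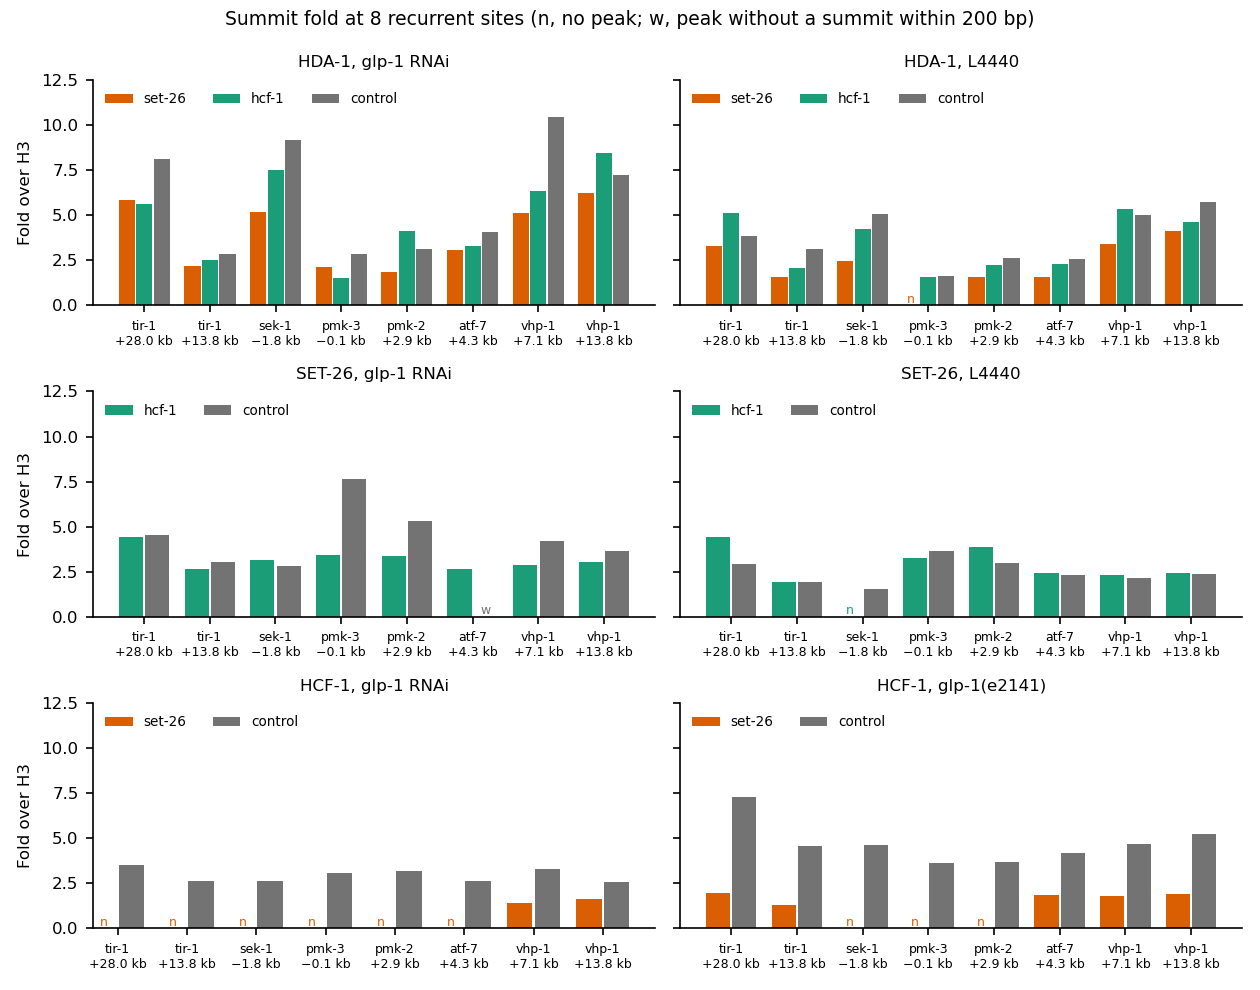
Summit fold at 8 recurrent sites (x axis, with distance in kb from the gene start) in mutants (coloured, left) and their control (grey, right) for each factor and food, where n marks no peak and w a peak without a summit within 200 bp of the site. For HDA-1 set-26 bars are below the control at all sites on glp-1 RNAi, for example 5.15-fold against 9.20-fold at sek-1, and HCF-1 bars of set-26 worms are missing or below 2-fold.

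The same counts were made for 43 other genes of p38 and neighbouring cascades, beside all protein-coding genes. In set-26 worms HCF-1 had no peak at 21 of the 27 genes it bound in glp-1 RNAi controls, where 84.2% of all bound genes had none, at 14 of 32 with glp-1(e2141) (54.6%) and at 9 of 14 on L4440 (31.3%). In hcf-1 worms SET-26 had no peak at 3 of 22 on glp-1 RNAi (12.4%) and 0 of 17 on L4440 (6.01%). HDA-1 had none in set-26 worms at 7 of 35 on glp-1 RNAi (26.1%) and 7 of 26 on L4440 (54.0%), and none in hcf-1 worms at 6 of 35 on glp-1 RNAi (18.7%) and 2 of 26 on L4440 (16.0%). Except for HCF-1 on L4440 and SET-26 on glp-1 RNAi, these shares were below those of all genes. The 7 listed genes of the PMK-3 branch, which acts in axon repair, had HCF-1 peaks at 1 in set-26 worms on glp-1 RNAi, against 7 in the control, where the shares of all genes were 7.1% and 42.8%. With glp-1(e2141) they had them at 5 in set-26 worms, against 7 (25.0% and 49.0% of all genes), and on L4440 at 1, against 4 (23.1% and 33.4%). Of the 43, the MAPKAP kinase gene mak-1 had the lowest ratio of HDA-1 fold in set-26 to control worms on both foods, with 3.47-fold in set-26 worms on glp-1 RNAi and 2.63-fold on L4440, against 8.19-fold and 5.78-fold in the controls.

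The 11 genes listed here as PMK-1 dependent effectors include genes for lysozymes, C-type lectins and antimicrobial peptides. Whether each of them depends on PMK-1 was not tested. SET-26 had a peak at 0 of the 11 in each of its 6 lists, in which 37.8% to 42.7% of all protein-coding genes had 1. On glp-1 RNAi HDA-1 had peaks at 4 of 11 in set-26 worms (34.6% of all genes) and 4 of 11 in hcf-1 worms (38.4%). The control had them at 6 of 11 (45.0%). On L4440 HDA-1 had peaks at 1 of 11 in set-26 worms (16.2%) and 2 of 11 in hcf-1 worms (31.1%), against 2 of 11 (34.0%). HCF-1 had peaks at 0 of 11 in set-26 worms on glp-1 RNAi (7.1%), against 4 of 11 (42.8%). With glp-1(e2141) it had them at 3 of 11 in set-26 worms (25.0%), against 3 of 11 (49.0%). Those sets differed, with clec-85 bound in the control only and dod-22 in set-26 worms only. On L4440 HCF-1 had peaks at 0 of 11 in set-26 worms (23.1%) and 0 of 11 in the control (33.4%). For HDA-1 lys-2, a lysozyme gene, had the highest of these folds, at 2.00-fold in set-26 worms and 3.03-fold in hcf-1 worms on glp-1 RNAi, against 3.65-fold in the control. HDA-1 bound 3 of 3 transcription factor genes, hlh-30, skn-1 and elt-2, in each of its lists (16.2% to 45.6% of all genes). SET-26 bound 2 of these 3 in each of its lists (37.8% to 42.7%). At hlh-30, which encodes a regulator of autophagy and defence genes, HDA-1 was at 7.74-fold in set-26 and 10.8-fold in hcf-1 worms on glp-1 RNAi, against 10.5-fold. At kgb-1, a JNK-like kinase whose phosphatase is VHP-1, HCF-1 was at 1.59-fold in set-26 worms on glp-1 RNAi, against 7.54-fold, and SET-26 at 6.31-fold in hcf-1 worms, against 10.9-fold.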

How the data were processed

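CUT&RUN libraries of SET-26, HCF-1, HDA-1, histone H3 and antibody background were made from 83 samples in 41 groups. Per the submitters' processing notes, reads were trimmed with Trim Galore 0.6.5, aligned with Bowtie2 2.4.3 and peaks called with MACS2 2.1.4, on WBcel235. Peaks were called on merged replicates with a q-value cutoff of 0.01, per the file headers. The deposited fold enrichment is the authors' ratio of the factor pileup to the local control background at a summit, and the deposited −log10 q-value is the authors' measure of it against that background. Depth per sample is not in the files, and the merged tags are in the headers. Copies of the 22 lists in a browser format were not used.

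Entries with the same start and end were taken as 1 peak, with the value of the summit of highest −log10 q. Peaks were intersected with Ensembl release 115 genes in Python 3.11.15 with pandas 2.3.3 and numpy 2.4.6, after the overlap rules were tested on simulated intervals. Site folds are those of the summit of highest −log10 q within 200 bp of the site. The authors' differential tests were not used. No replicate error or test was possible. The 8 genes and the other gene lists were chosen with earlier results of these data known. All 8 genes are named, and other genes where they differ most in fold. Only part of the 32 recurrent sites is described, some with intervals, and the remaining sites and peaks enter through the counts. Alternatives changed the overlap, the minimum −log10 q, the window and, for HCF-1 in glp-1(e2141), the control library. The labels of HDA-1 samples in set-26 worms spell the allele otherwise, and their titles were followed.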

Additional observations from a re-analysis of the deposited data

How the results depend on the processing

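No paired analysis was possible because each list was called on merged replicates, and leaving out 1 replicate could not be done for the same reason. The counts of kept control peaks stayed within 1.5 times of the reported ones in all 9 comparisons when a mutant summit had to lie in the control peak or when 1000 bp upstream was used, in the 1 comparison where antibody background replaced H3, in 8 of 9 when −log10 q had to reach 5, and in 7 of 9 when mutant peaks had to cover 50% of the control peak. HCF-1 in set-26 worms made up the exceptions, with 1 kept peak of 32 on glp-1 RNAi at −log10 q 5, and 0 kept on glp-1 RNAi and 0 with glp-1(e2141) at 50% cover, so its few kept peaks are parts of wider control peaks. A window around the gene start, reaching 2000 bp before and 500 bp after it, holds fewer peaks by construction. In it HCF-1 kept 0 of 16 peaks in set-26 worms on glp-1 RNAi, 2 of 11 with glp-1(e2141) and 0 of 4 on L4440. The mutant peaks that overlap those 2 lay outside the window, which held 0 HCF-1 peaks of set-26 worms with glp-1(e2141). SET-26 kept 11 of 16 in hcf-1 worms on glp-1 RNAi and 6 of 9 on L4440. HDA-1 kept 7 of 8 in set-26 worms and 7 of 8 in hcf-1 worms on glp-1 RNAi, and 2 of 4 and 4 of 4 on L4440.

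Of the numbers of genes with a peak, all 22 stayed within 1.5 times with 1000 bp upstream, 21 at −log10 q 5, 21 when the summit had to lie inside and 16 in the start window. HCF-1 in wild type worms had 4 genes at −log10 q 5, and HCF-1 in set-26 worms on L4440 had 1 by the summit rule. In the start window HDA-1 had 2 genes in set-26 worms on L4440, 3 in L4440 controls and 5 in glp-1(e2141), and HCF-1 in set-26 worms had 0 on L4440, 0 on glp-1 RNAi and 0 with glp-1(e2141). The HCF-1 libraries of set-26 worms were deeper than those of their controls. Depth also differed in the SET-26 and HDA-1 comparisons, and its part was not tested.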
